A study of Mus musculus with 6 samples.

Results

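The IL-6 family of cytokines and its receptors was followed here in mouse hippocampus after cerebral ischemia-reperfusion (I/R), through 10 genes chosen by their names in the deposited gene table: the ligand genes Il6, Il11, Lif, Osm, Clcf1 and Cntf, and the receptor genes Il6ra, Osmr, Lifr and Il6st. All 10 were found among 41386 genes. The I/R group was adult male C57BL/6 mice (C57BL/6J in the study's methods), 56 days old, whose left middle cerebral artery was closed with a filament for 1.5 h and then reperfused for 24 h. The sham group had the same operation without the filament, and both groups were unmodified mice. Each group had 3 RNA-seq libraries of the hippocampus on the operated side, and each library pooled 3 hippocampi, so the p-values describe the spread between pools and not between single mice.

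These cytokines share the signalling chain gp130, the product of Il6st. A ligand joins gp130 to itself or to a partner chain, JAK kinases bound to the receptors are activated, and the transcription factor STAT3 is phosphorylated and drives target genes that include its own inhibitor Socs3. In the injured brain the family is known for its link to reactive astrocytes, acute phase proteins and the survival of neurons.

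Promoter sequences are printed for the 3 ligand genes whose windows held a searched motif and that were called higher, and for the receptor genes Osmr and Il6st, whose windows held none. They come from RefSeq on GRCm38.p6, hold the 250 bases before the annotated start site, and read 5′ to 3′ on the gene's strand. Of the 10 genes, 8 matched an entry, Il11 and Lifr with more than 1 start site, and Osm and Clcf1 had no entry. Capitals mark the motifs found. The Il6 window was chr5:30012864-30013113 on the plus strand, Lif chr11:4257318-4257567 on the plus strand, Il11 (start site 2) chr7:4778142-4778391 on the minus strand, Osmr chr15:6874314-6874563 on the minus strand and Il6st chr13:112463820-112464069 on the plus strand.
Il6: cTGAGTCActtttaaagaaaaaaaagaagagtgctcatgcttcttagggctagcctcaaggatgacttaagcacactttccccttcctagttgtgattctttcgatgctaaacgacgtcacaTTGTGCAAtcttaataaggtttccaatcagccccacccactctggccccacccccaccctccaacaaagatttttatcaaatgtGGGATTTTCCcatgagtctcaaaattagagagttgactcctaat
Lif: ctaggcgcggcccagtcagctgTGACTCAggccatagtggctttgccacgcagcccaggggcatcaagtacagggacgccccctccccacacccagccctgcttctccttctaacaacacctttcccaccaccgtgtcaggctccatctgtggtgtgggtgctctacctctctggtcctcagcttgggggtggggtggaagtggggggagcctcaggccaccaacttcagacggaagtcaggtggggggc
Il11: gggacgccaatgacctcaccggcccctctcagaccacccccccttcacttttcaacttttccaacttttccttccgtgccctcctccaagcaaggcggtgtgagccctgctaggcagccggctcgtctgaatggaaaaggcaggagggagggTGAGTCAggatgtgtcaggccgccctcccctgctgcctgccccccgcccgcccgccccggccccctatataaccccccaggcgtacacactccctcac
Osmr: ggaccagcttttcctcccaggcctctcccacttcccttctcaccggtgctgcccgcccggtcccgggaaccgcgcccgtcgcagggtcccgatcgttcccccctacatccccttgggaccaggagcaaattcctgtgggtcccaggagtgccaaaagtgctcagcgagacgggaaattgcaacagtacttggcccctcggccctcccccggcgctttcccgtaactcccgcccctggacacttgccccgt
Il6st: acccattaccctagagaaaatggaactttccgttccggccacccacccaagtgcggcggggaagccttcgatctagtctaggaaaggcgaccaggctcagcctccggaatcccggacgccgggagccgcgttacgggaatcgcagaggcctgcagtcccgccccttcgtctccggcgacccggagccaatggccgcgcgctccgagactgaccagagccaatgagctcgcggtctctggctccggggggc

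4 motifs were searched on both strands: the STAT motif TTCNNNGAA, the AP-1 motif TGANTCA, the C/EBP motif TTGCNNAA and the kappa B motif of NF-kappa B. The Il6 window held an AP-1 match at positions -249 to -243 from the start site, a C/EBP match at -128 to -121 and a kappa B match at -44 to -35, with no overlap among them. An AP-1 match lay at -228 to -222 in the Lif window, at -98 to -92 before start site 2 of Il11, and at -245 to -239 in the Cntf window. The windows of Il6ra, Osmr, Il6st and Lifr, and that of start site 1 of Il11, held none of the motifs. No window held the STAT motif. Of 32851 mouse promoters of this length, 7.02% held the STAT motif, 6.75% the AP-1 motif, 9.56% the C/EBP motif and 3.90% the kappa B motif. A match describes these letters only and was not read as a bound site.

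Counts per library totalled 37493042 to 44788547. Levels within a gene are given as CPM, counts scaled to a common library size, after TMM scaling, and levels between genes as the authors' FPKM, which is per gene length. A gene was called when edgeR's quasi-likelihood test gave a Benjamini-Hochberg adjusted p under 0.05 over all 18569 genes tested and the fold exceeded 1.2. The levels of cell type markers differed between and within the groups. 6 marker genes of hippocampal neurons (Rbfox3, Tubb3, Snap25, Prox1, Neurod6, Camk2a) summed to 8937 to 9019 CPM in the sham libraries and to 1410, 3264 and 3737 CPM in I/R replicates 1 to 3, so markers of the labelled tissue were present in every library. Of these, 5 were called lower and Neurod6 was not called (edgeR adjusted p = 0.128). Camk2a, with a mean of 5699 CPM in sham, was the largest part of the sum. Its log2 fold change was -2.07, against -0.75 for Rbfox3 and -0.77 for Prox1. The Rbfox3 call was lost without sham replicate 1 or 2. The summed CPM of 6 monocyte and macrophage markers was 10.6 to 12.6 in sham and 98.0 to 223 in I/R, with 4 of the 5 tested called higher, of which Ccr2 passed the filter on low counts through its I/R libraries. In I/R Cd14 was the largest part of that sum, with a mean of 111 CPM against 3.16 CPM in sham. Ms4a7 was not called (edgeR adjusted p = 0.175) and Plac8 was too low to be tested. For 7 neutrophil markers the summed CPM was 0.233 to 1.56 in sham and 6.33 to 32.3 in I/R, while the defining marker Ly6g had 1, 0 and 0 counts in I/R and 0 in every sham library. All 4 neutrophil markers tested were called higher, but each needed its I/R libraries to pass the filter, so those calls lend nothing, and without sham replicate 2 the calls of S100a9, Mmp8 and Retnlg were lost. Endothelial markers summed to 245 to 249 CPM in sham and 335 to 502 in I/R, and fibroblast and pericyte markers to 177 to 182 and 214 to 288 CPM. In each of these lists 5 markers were called higher and 1 lower, the endothelial Slco1a4 and the pericyte Rgs5. Both lower calls, and the higher calls of Tek, Pdgfrb and Col1a1, were lost without any one of the sham libraries. The endothelial Pecam1 had a mean of 27.6 CPM in sham and 105 CPM in I/R. It was picked out by the study on these libraries, so its call is not independent evidence. Microglial markers summed to 219 to 249 CPM in sham and 232 to 323 in I/R, with 3 called higher, 2 lower and 1 not called. The higher call of Cx3cr1 was lost without any one of the sham libraries and without I/R replicate 1 or 3. That of Aif1 was lost without sham replicate 1 or 2. For astrocyte markers the sums were 5293 to 5584 CPM in sham and 4849 to 5157 in I/R, with 2 called higher and 4 lower. The higher call of Aqp4 was lost without any one of the sham libraries and without I/R replicate 2 or 3. The lower call of Slc1a3 was lost without sham replicate 3. 6 choroid plexus markers summed to 32.6 CPM in I/R replicate 3 and 36.4 CPM in sham replicate 1, against 1589 to 4400 CPM in the other 4 libraries. In these bulk samples a change in the number of cells of a type and a change in marker RNA per cell cannot be told apart, in either direction. The part of these shifts in the results below was not tested.

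Of the 9 family genes that could be tested, 8 were called higher and 1 lower in I/R. Over all tested genes 41.8% were called, 21.8% higher and 19.9% lower. In CPM the lowest I/R library exceeded the highest sham library for these 8 genes and the reverse held for Lifr, where over all tested genes 57.4% did not overlap in either direction and 29.3% had every I/R library above sham. Il6, Osm and Il11 passed the filter on low counts through their I/R libraries (at the minimum of 0.259 CPM stood none of the sham libraries for Il6 and Osm, and 1 for Il11), so they had to differ and their calls lend nothing to the count. With at least 10 counts demanded in every library, 6 members were tested and 5 were called, all higher. Over all genes under that filter, 7247 of 16421 were called, 3750 of them higher. An exact two-sided permutation test of CPM gave p = 0.1 for each of the 9, the smallest value that 3 against 3 libraries allow.

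**Figure D1:**
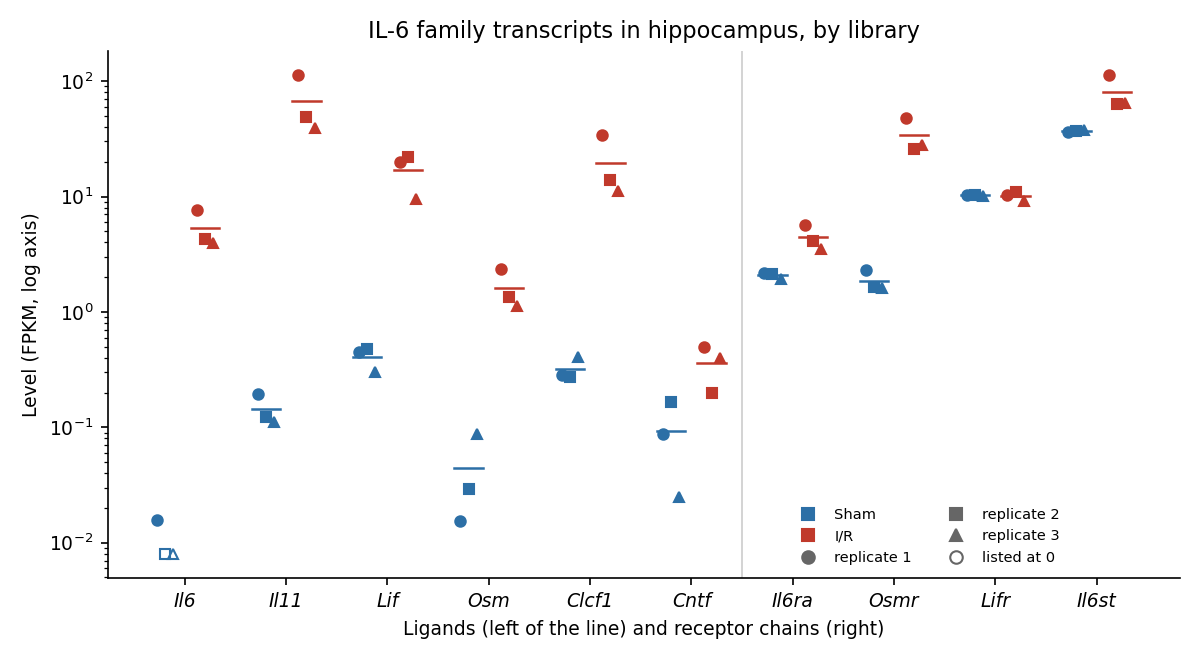
FPKM (log axis) of the 10 genes in each library, with bars at the group means of 3 libraries (none for Il6 in sham) and open symbols for a value listed at 0. The I/R symbols of all ligands and of Il6ra, Osmr and Il6st lie above those of sham, while the Lifr symbols overlap between 9.10 and 10.9 FPKM.

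Among the ligands, Il11, which signals through its own alpha receptor and gp130, had the highest mean level per length after I/R. Il11 (chromosome 7, 1752662 to 1763459 on the BALB/cJ assembly that the table's identifiers name, minus strand) had 6519, 2685 and 2143 counts in I/R replicates 1 to 3 and 12, 8 and 6 in sham. Every I/R library stood far above sham, and I/R replicate 1 was the highest by more than the whole spread of the others. It rose from 0.226 ± 0.071 to 88.0 ± 48.3 CPM (SD, n = 3 each), a fitted log2 fold change of 8.58 ± 0.53 (SE, adjusted p = 0.000212 by edgeR). Without I/R replicate 1 it was 8.03.

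Il6, the founding ligand, which binds the alpha receptor encoded by Il6ra, was almost absent from sham. Il6 (chromosome 5, 27573622 to 27581838, plus strand) had 451, 239 and 224 counts after I/R against 1, 0 and 0 after sham surgery. All sham libraries lay under a detection floor of 3 counts per library, so the fold is a lower bound. The I/R mean of 7.16 ± 2.39 CPM (SD, n = 3) was at least 90.3-fold higher than that floor and at least 73.0-fold higher without I/R replicate 1 (edgeR adjusted p = 0.000212).

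Lif, which signals through a pair of LIFR and gp130, had 2141, 2243 and 984 counts after I/R against 52, 58 and 31 after sham surgery. Lif (chromosome 11, 1173462 to 1188937, plus strand) was the only ligand with its highest I/R library in replicate 2. It rose from 1.22 ± 0.280 to 42.6 ± 16.2 CPM (SD, n = 3 each), a log2 fold change of 5.11 ± 0.36 (SE, adjusted p = 0.000215 by edgeR). Its neighbour Osm (chromosome 11, 1150392 to 1154998, plus strand), 18463 bases away, encodes oncostatin M, the ligand of the OSMR and gp130 pair in the mouse. Osm had 143, 77 and 64 counts after I/R against 1, 2 and 5 after sham surgery, with no overlap but at a depth where sham replicate 3 alone shifts the estimate. Its level went from 0.073 ± 0.063 to 2.22 ± 0.812 CPM (SD, n = 3 each), with a log2 fold change of 4.91 ± 0.57 (SE, adjusted p = 0.000857 by edgeR) that was 5.77 without sham replicate 3.

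Clcf1 and Cntf encode ligands of the CNTF receptor complex of CNTFR, LIFR and gp130. Clcf1 (chromosome 19, 1007290 to 1016564, plus strand) had 2656, 1033 and 830 counts after I/R against 24, 24 and 30 after sham surgery. I/R replicate 1 stood well above the other I/R libraries, and the lowest I/R library remained far above sham. It rose from 0.692 ± 0.156 to 35.0 ± 20.4 CPM (SD, n = 3 each), a log2 fold change of 5.66 ± 0.47 (SE, adjusted p = 0.000326 by edgeR) that was 5.07 without I/R replicate 1. Clcf1 shares 87 bases with Gm26115 on the opposite strand, which had at most 45 counts in any library.

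Cntf, known in the brain as an astrocyte factor, had 21, 8 and 16 counts after I/R against 4, 8 and 1 after sham surgery and was too low to be tested. The mean of the I/R libraries was 0.354 ± 0.137 CPM and that of sham 0.109 ± 0.084 CPM (SD, n = 3 each), and the closest I/R and sham libraries stood at 0.200 and 0.197 CPM. In the 5 alternative analyses that gave Cntf a value it was never called, with adjusted p between 0.0782 and 0.230. All 1973 bases of Cntf (chromosome 19, 9610738 to 9612710, minus strand) lie inside Zfp91 on the same strand, a gene with 6382 to 9281 counts per library, so reads of the pair may have been split or lost and the level of Cntf is uncertain.

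**Figure D2:**
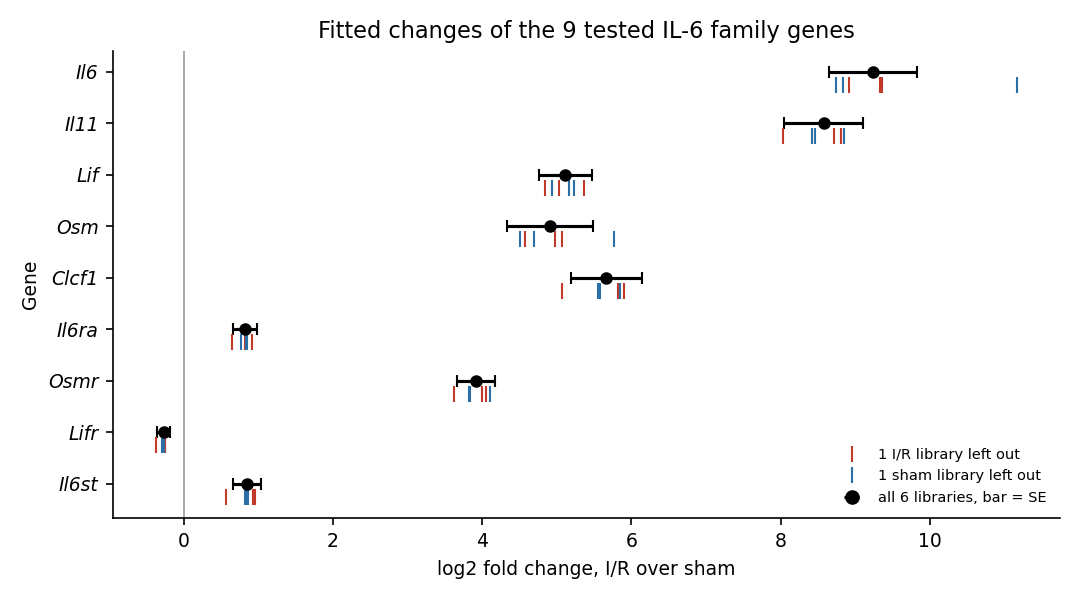
Fitted log2 fold change (I/R over sham) of the 9 tested genes, with the standard error over 6 libraries as the bar and ticks for the value when each library is left out. Il6 and Il11 lie above 8, Lif, Osm and Clcf1 near 5, Osmr near 4, Il6ra and Il6st under 1 and Lifr just under 0, and the Il6 position is a model value since sham is at the floor.

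The 4 receptor genes included 3 called higher and 1 called lower. Osmr, the partner chain that pairs with gp130 for oncostatin M, had 6063, 3046 and 3357 counts after I/R against 313, 233 and 193 after sham surgery. Even the lowest I/R library held several times the counts of sham replicate 1, which was the highest of sham. Osmr (chromosome 15, 3642493 to 3703860, minus strand) rose from 6.45 ± 1.36 to 97.8 ± 30.9 CPM (SD, n = 3 each), a 15.1-fold difference of means and a log2 fold change of 3.92 ± 0.26 (SE, adjusted p = 0.000212 by edgeR).

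Il6st, the shared chain, was already abundant in sham, with 3853, 4136 and 3576 counts against 11232, 5933 and 6110 in I/R. The sham libraries were close together and I/R replicate 1 stood well above the other I/R libraries. Il6st (chromosome 13, 111129220 to 111174772, plus strand) went from 101 ± 2.64 to 183 ± 55.6 CPM (SD, n = 3 each), a log2 fold change of 0.85 ± 0.19 (SE, adjusted p = 0.00930 by edgeR), or 0.57 without I/R replicate 1. Il6ra, the alpha receptor that gives IL-6 its specificity, had 1301, 903 and 766 counts after I/R against 542, 553 and 423 after sham surgery. Its groups did not overlap, and the level of Il6ra (chromosome 3, 87091730 to 87141287, minus strand) rose from 13.3 ± 0.849 to 23.4 ± 4.77 CPM (SD, n = 3 each; log2 fold change 0.82 ± 0.16 SE, adjusted p = 0.00498 by edgeR). A stretch of 281 of its bases overlaps Gm42809 on the opposite strand, which had at most 17 counts.

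Lifr, the partner chain for LIF and the CNTF complex, was the exception. It had 2266, 2270 and 1900 counts after I/R against 2441, 2554 and 2088 after sham surgery, which overlap as counts. In TMM-scaled CPM the I/R libraries, at 49.8, 56.8 and 47.5, all lay under the sham libraries at 62.5, 62.8 and 60.7. The log2 fold change of Lifr (chromosome 15, 3958212 to 4027252, plus strand) was -0.27 (± 0.09 SE, adjusted p = 0.0441 by edgeR), just past the threshold. The call depended on the scaling: with library size alone the log2 fold change was -0.02 (adjusted p = 0.897), a scaling under which the median gene shifted from 0.03 to 0.28, and the call was lost in 14 of 19 alternative analyses. Leaving out I/R replicate 3 or any single sham library also ended it, with log2 fold changes of -0.30 to -0.25 and adjusted p of 0.0855 to 0.119. Without I/R replicate 1 the adjusted p was 0.0223, and the call ended because the log2 fold change of -0.25 fell under the fold limit.

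I/R replicate 1 was the highest I/R library in CPM for 8 of the 10 genes and replicate 2 for Lif and Lifr. Over all 4054 genes called higher, replicate 1 was the highest in 73.1%. That library also had the highest I/R sums of monocyte and macrophage, neutrophil, microglial, endothelial, and fibroblast and pericyte markers. Its sum of neuronal markers was the lowest. Cd14, the largest part of the monocyte and macrophage sum in I/R, had 8213, 3311 and 2804 counts in I/R replicates 1 to 3. Not every marker followed its sum: the microglial P2ry12, endothelial Slco1a4 and pericyte Rgs5 had their lowest I/R counts in replicate 1. Ccr2 had its highest I/R count in replicate 3. The part of these differences in the members' levels was not tested. Without I/R replicate 1 the 8 genes called higher were called again and Lifr was not. The same held without the pair of libraries low in choroid plexus markers, with log2 fold changes of 9.10 for Il11, 5.44 for Lif, 5.84 for Clcf1, 4.69 for Osm, 4.19 for Osmr, 0.93 for Il6st and 0.97 for Il6ra.

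On the FPKM scale, which compares levels between genes, the order of the family differed between the groups. In sham Il6st led with 36.8 ± 0.924 FPKM, followed by Lifr with 10.2 ± 0.171, Il6ra with 2.08 ± 0.132 and Osmr with 1.87 ± 0.401 (SD, n = 3 each). Every ligand had a sham mean under that of the receptor chains, from 0.407 ± 0.092 FPKM for Lif down to Il6, which was listed at 0.0158, 0 and 0 FPKM. Neighbours overlapped in sham for Il6ra and Osmr, Lif and Clcf1, Il11 and Cntf, Cntf and Osm, and Osm and Il6.

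In I/R the leading genes were Il6st with 79.9 ± 28.4 FPKM and Il11 with 67.4 ± 40.4, whose libraries overlapped (SD, n = 3 each). Osmr followed with 34.0 ± 12.5 FPKM, then Clcf1 with 19.6 ± 12.4 and Lif with 17.0 ± 6.58, and each overlapped its neighbour. Lifr at 10.1 ± 0.930 FPKM stood above Il6 at 5.31 ± 2.04 and Il6ra at 4.42 ± 1.11 without overlap, and Osm at 1.61 ± 0.670 and Cntf at 0.363 ± 0.151 closed the order, each without overlap with the gene above it. The length behind FPKM bears on this order: with counts divided by the length listed in the table, an alternative chosen after the data were seen, Il11 (51.2) ranked above Il6st (25.4), and Lif (11.6) above Clcf1 (11.0).

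The summed FPKM of the 6 ligand genes was 178, 90.9 and 65.4 in I/R replicates 1 to 3 and 1.05, 1.06 and 0.929 in sham. Il11 supplied 63.9%, 54.3% and 60.0% of that sum in the I/R libraries against 18.6%, 11.6% and 11.9% under sham. Lif supplied 11.1%, 24.0% and 14.6% in the I/R libraries against 42.7%, 44.5% and 32.5% under sham. The Il11 share was therefore higher and the Lif share lower in every I/R library. The Clcf1 share, at 15.3% to 19.1% in I/R and 25.5% to 43.5% in sham, was also lower in I/R. The levels of Lif and Clcf1 nevertheless both rose. With the table's length in place of that in FPKM, the Il11 share was 58.7% to 68.7% in I/R and 12.4% to 20.6% in sham. These shares are of transcript levels and carry no counting interval, and those in sham rest on few reads.

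**Figure D3:**
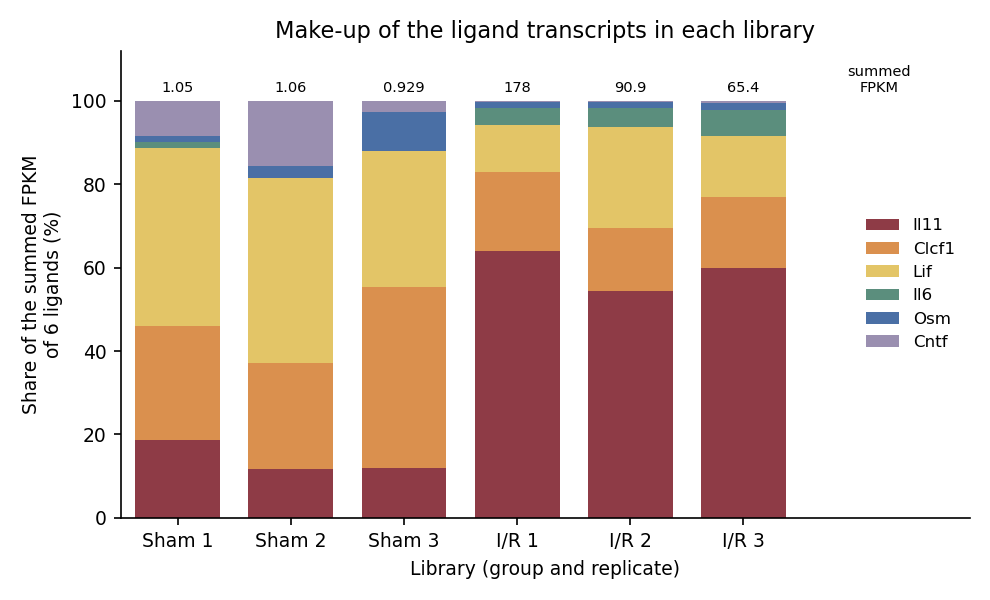
Share (%) of each ligand gene in the summed FPKM of the 6 ligand genes, 1 stacked bar per library, with the summed FPKM printed above each bar. Il11 fills 54.3% to 63.9% of the I/R bars and 11.6% to 18.6% of the sham bars.

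Ratios of FPKM within a library do not depend on how libraries were scaled to each other, but their size depends on the gene lengths used. Osmr over Lifr was 4.68, 2.35 and 3.09 in the I/R libraries against 0.224, 0.160 and 0.162 under sham. The FPKM of Lifr thus exceeded that of Osmr in every sham library and the FPKM of Osmr that of Lifr in every I/R library, a mean difference of 4.17 on the log2 scale. Osmr over Il6st was 0.429, 0.408 and 0.437 in the I/R libraries against 0.0646, 0.0448 and 0.0429 under sham, a difference of 3.09, and it varied less among I/R libraries than either gene did alone. Lifr over Il6st was 0.288, 0.281 and 0.266 in sham but 0.0918, 0.174 and 0.141 in I/R, a log2 difference of -1.08. Each of these 3 ratios separated the groups, with p = 0.1 in an exact two-sided permutation test, the smallest that 3 against 3 allow.

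Il6ra over Il6st was 0.0501, 0.0659 and 0.0543 in the I/R libraries against 0.0609, 0.0579 and 0.0512 under sham. The groups overlapped, and the log2 difference of -0.00317 ranged from -0.115 to 0.0815 as single libraries were left out (exact permutation p = 1). In total 4 ratios were compared, and with p-values of 0.1 or more none could pass a threshold of 0.05 before or after adjustment.

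**Figure D4:**
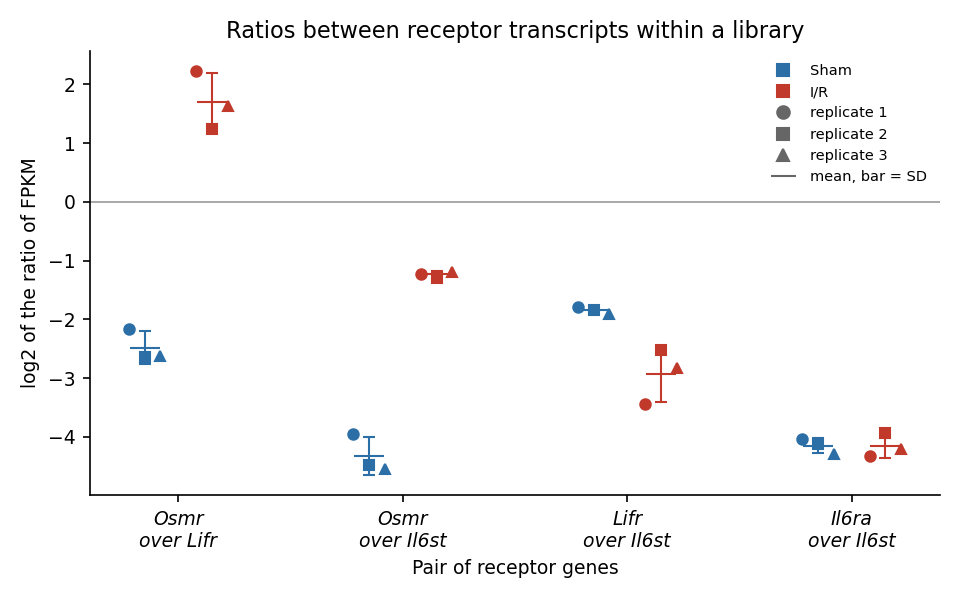
Log2 of the FPKM ratio of pairs of receptor genes within each library, with bars for the mean and SD of 3 libraries. Osmr over Lifr crosses from below 0 in sham to above 0 in I/R, Osmr over Il6st is higher and Lifr over Il6st lower in I/R, and Il6ra over Il6st overlaps.

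Further ligands, receptors and shedding enzymes of the family were described by a list of 12 genes, of which 7 were tested, with 1 called higher, 2 lower and 4 not called (median log2 fold change -0.32, against 0.03 over all tested genes). The 42.9% of tested genes called is near the 41.8% over all genes, so this count is not a result about the list. Cntfr, the alpha receptor that CNTF and CLCF1 bind, had 2153, 1984 and 1865 counts after I/R against 2970, 3447 and 3050 after sham surgery (log2 fold change -0.80 ± 0.09 SE, adjusted p = 0.000693 by edgeR). In I/R Cntfr was thus lower where Clcf1 was higher, with every I/R library under sham, and the hippocampal neuron markers were lower in the same libraries, whose part in the result was not tested.

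Adam17, which sheds membrane receptors including that of IL-6, was called higher (log2 fold change 0.69 ± 0.22 SE, adjusted p = 0.0348 by edgeR), but its call was lost without any one of the sham libraries, with adjusted p between 0.0696 and 0.124. Adam10, another sheddase, had a log2 fold change of -0.01, and Ctf1, which encodes cardiotrophin 1, -0.47, and neither was called (edgeR adjusted p = 0.943 and 0.266). Ctf2, Il27, Il31 and Il31ra were too low to be tested, and Il11ra1, the alpha receptor of IL-11, was not analysed here.

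Of 12 genes that carry the gp130 signal, 11 were tested, with 4 called higher, 0 lower and 7 not called (median log2 fold change 0.10). The 36.4% called is likewise near the 41.8% over all tested genes, so the count says nothing particular of these genes. Stat3, the main transcription factor of the pathway, had 15933, 9481 and 9296 counts after I/R against 2449, 2744 and 2219 after sham surgery, with no overlap and I/R replicate 1 the highest. It rose from 64.9 ± 2.42 to 273 ± 66.6 CPM (SD, n = 3 each; log2 fold change 2.07 ± 0.17 SE, adjusted p = 0.000296 by edgeR). The adaptor gene Shc1 was called higher with a log2 fold change of 1.43 ± 0.30 (SE, adjusted p = 0.00735 by edgeR). Jak2, a receptor-bound kinase, was called higher with a log2 fold change of 0.46 (± 0.08 SE, adjusted p = 0.00325 by edgeR). Jak1, the kinase most used by gp130, and the phosphatase gene Ptpn11 were not called, at -0.17 and -0.01. Stat5a was not analysed here.

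Inhibitors of the pathway split in direction: of 12 listed, 10 were tested, with 5 called higher, 4 lower and 1 not called (median log2 fold change 0.60). The shares over all tested genes were 21.8% called higher and 19.9% called lower. Socs3, the inhibitor that binds gp130 itself, had 7021, 3719 and 3084 counts after I/R against 155, 128 and 63 after sham surgery. The lowest I/R library held many times the counts of the highest sham library. Its level rose from 2.98 ± 1.08 to 108 ± 40.7 CPM (SD, n = 3 each; log2 fold change 5.17 ± 0.36 SE, adjusted p = 0.000215 by edgeR). Ptpn6, a phosphatase of blood cells and microglia, rose by a log2 fold change of 1.82 ± 0.29 (SE, adjusted p = 0.00237 by edgeR) and Ptpn2, a phosphatase of JAK and STAT proteins, by 0.68 (± 0.11 SE, adjusted p = 0.00267 by edgeR). Socs1, an inhibitor of JAK kinases, was called at 1.21 (± 0.35 SE, adjusted p = 0.0272 by edgeR) but not without I/R replicate 2, sham replicate 1 or sham replicate 2. The lower calls were Socs5, Socs7, Pias1 and Pias3, between -0.56 and -0.41, and the calls of Pias1 and Pias3 were lost without any one of the sham libraries, with adjusted p between 0.0709 and 0.121, and that of Pias3 also without I/R replicate 3 (adjusted p = 0.0538). With library size as the only scaling, the inhibitors called became 6 higher and 1 lower. Cish was not called, at 0.94 (edgeR adjusted p = 0.0780), and Socs2 and Socs6 were not analysed here.

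A list of 22 known STAT3 target genes had 19 tested, of which 18 were called higher, 0 lower and 1 not called (median log2 fold change 3.09). Of these, Bcl3, Ccl2, Saa3 and Hp needed their I/R libraries to pass the filter on low counts, and their calls lend nothing to the count. Among the other 15 tested, 14 were called higher, where 21.8% were over all tested genes. Many of these genes also answer to other inflammatory signals, and Serpina3n among them was picked out by the study on these libraries, so the list is not independent evidence of its direction. Timp1, an inhibitor of matrix proteases, had 3602, 2549 and 1853 counts after I/R against 21, 27 and 12 after sham surgery, clear of each other (log2 fold change 6.90 ± 0.29 SE, adjusted p = 5.5e-05 by edgeR). Saa3, an acute phase protein gene, had 1511, 241 and 259 counts after I/R against 0, 1 and 1 after sham surgery. Its I/R mean was at least 192-fold above the floor of 3 counts per library, and at least 78.9-fold without I/R replicate 1, which held most of the reads (edgeR adjusted p = 0.00106).

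Ccl2, a chemokine for monocytes, had 2589, 1172 and 1015 counts after I/R against 73, 9 and 0 after sham surgery (log2 fold change 5.70 ± 0.90 SE, adjusted p = 0.00274 by edgeR), and 8.24 without sham replicate 1. Lcn2, an acute phase protein gene of reactive astrocytes and neutrophils, had 7644, 3099 and 2053 counts after I/R against 318, 60 and 12 after sham surgery (log2 fold change 4.88 ± 0.98 SE, adjusted p = 0.00772 by edgeR). Sham replicate 1 was thus the highest sham library for both, as it was for Osmr and Socs3. The Lcn2 log2 fold change was 6.70 without sham replicate 1, and without I/R replicate 1 it was 4.25 with an adjusted p of 0.0706. Without I/R replicate 1 the STAT3 targets called numbered 16, with Lcn2 and Icam1 lost. Bcl2l1, an inhibitor of apoptosis, was not called (log2 fold change 0.19, edgeR adjusted p = 0.119), Fgg was too low to be tested, and Cebpd and Vegfa were not analysed here.

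**Figure D5:**
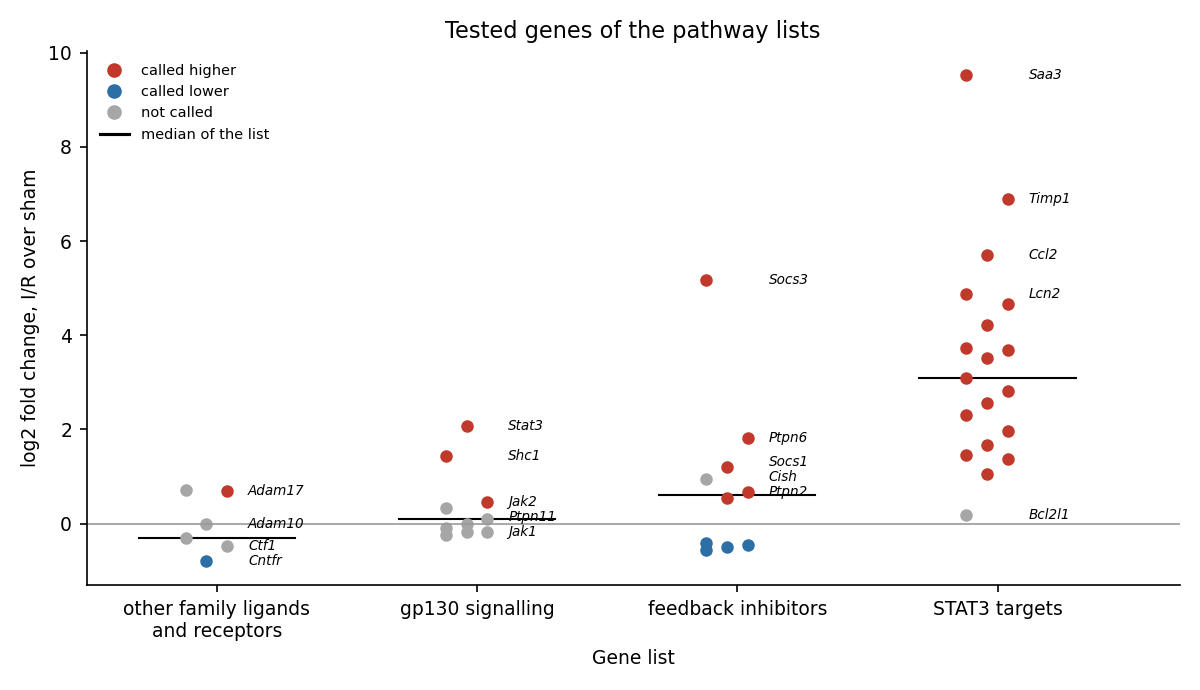
Log2 fold change (I/R over sham) of the tested genes in the 4 pathway lists, 2 of them not drawn, coloured by call, with a line at each list's median over all its tested genes and labels for the named genes. The STAT3 targets centre on 3.09 and the gp130 signalling genes on 0.10, and the Saa3 position is a model value since sham is at the floor.

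Likeness of pattern was measured for Osmr and Il6 against 14056 genes, as the root mean square distance between log2(CPM + 0.5) values centred on each gene's mean over the 6 libraries. The genes nearest to Osmr were C3ar1, a receptor of complement C3a, at a distance of 0.0891, the chemokine gene Cxcl10 at 0.0902, and Ms4a6c at 0.125. C3ar1 had 2207, 1126 and 1163 counts after I/R against 98, 67 and 70 after sham surgery, with the same order of libraries within I/R as Osmr. Nearest to Il6 were the chemokine gene Ccl3 at 0.117, the protease inhibitor gene Serpina3n at 0.130 and C3ar1 again at 0.136. The 0.5 CPM offset shrinks the differences of genes near 0 in sham, such as Il6 and Cxcl10, so nearness does not mean folds of like size, and these distances are descriptions.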

How the data were processed

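Total RNA of pooled hippocampi was sequenced in 3 I/R and 3 sham libraries. The authors aligned reads to an Ensembl genome with TopHat2 and counted them per gene with HTSeq, while the submitters' processing notes name Bowtie 0.12.2. The identifiers in the table are those of the BALB/cJ assembly, whose coordinates are given. BALB/cJ is not the strain of the mice, and the effect of this on the counts was not tested. Whether counting used strand is not given in the sources used here. The deposited counts are raw, and the deposited FPKM values were computed by the authors with a whole-number length per gene that can be shorter than the length listed beside it. Their columns of fold changes, p-values and group means were not used. In the table, 4 broken lines were rejoined, 40303 of 41386 genes had a BALB/cJ identifier and 1083 were assembled loci.

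Counts were tested with edgeR 4.0.16 (robust quasi-likelihood fit, TMM, filterByExpr, all 6 libraries, no covariates) in R 4.3.3, with p-values adjusted over 18569 genes; DESeq2 1.42.0 and limma 3.58.1 were alternatives. The fit was tested on simulated counts. No 2 libraries held identical counts. A floor of 3 counts corresponded to 0.0659 to 0.0872 CPM, and it covers counting error only. Named genes were all members, and from each pathway list up to 4 called genes with the largest changes and up to 2 uncalled genes with the highest CPM, plus the 3 genes nearest in pattern to Osmr and Il6. Other genes, named as lost calls, as lower calls, as large parts of a marker sum, as not called or as not tested, were chosen after their values were seen. Members and lists were chosen with earlier results of these data known. Promoter windows and their sense orientation were checked against transcript starts. Counts and medians of the lists cover all their tested genes, 2 of which are not reported here by name.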

Additional observations from a re-analysis of the deposited data

How the results depend on the processing

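The alternatives were other scalings, count filters, tests, units and fold limits, a replicate block, and leaving out libraries. The results followed were the receptor ratios, the counts of calls and the log2 fold changes of the tested members. Under the alternatives, 285 of them kept direction and side of the threshold (counts within 1.5 times), and 5 counts moved by over 1.5 times. Among the members 16 calls were lost, 14 of them for Lifr, and no called result reversed. Calls of single genes in the other lists are not in these totals. Adam17 and Socs1, for example, were each not called in 5 of 19 alternatives. The ratio of Il6ra to Il6st, which was not apart between the groups, changed sign in 4 of 7 alternatives (log2 difference 0.0141 to 0.0815, against -0.00317), within the spread between libraries. With a fold limit of 2, 2760 of all genes were called (7756 in the analysis reported), 1 of the other family ligands and receptors, 2 of the gp130 signalling genes and 3 of the feedback inhibitors, and Il6st and Il6ra were no longer called, by construction. With at least 10 counts in every library, 5 IL-6 family members were called, since Il6, Osm and Il11 were not tested and Lifr was not called. With library size as the only scaling, 6334 genes were called higher and 2027 lower, against 4054 and 3702. Leaving out each library in turn gave 5330 to 7976 calls over all genes, 8 to 9 over the family, 2 to 3 over the other ligands and receptors, 3 to 4 over the signalling genes, 6 to 9 over the inhibitors and 16 to 18 over the STAT3 targets. Log2 fold changes over the alternatives ran from 3.60 to 5.44 for Lif, 5.75 to 9.10 for Il11, 3.81 to 5.95 for Clcf1, 1.29 to 5.77 for Osm and 3.57 to 4.19 for Osmr, lowest for each on the log2(FPKM + 1) scale. Groups with libraries left out shared the spread estimated over all that remained.

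Samples with the same replicate number did not deviate together (correlations -0.0967, 0.0556 and -0.184), so the numbers were not taken as pairs. With the number as a replicate block, 6332 genes and 8 family members were called, Lifr being lost (adjusted p = 0.0860). Depth limits Cntf, and Il6, Osm and Il11 in sham.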
